A study of Homo sapiens with 23 samples.

Results

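Heparan sulfate proteoglycan synthesis was examined through 41 listed genes, which encode the enzymes that build and sulfate the chains, the core proteins that carry them, and the enzymes that trim them outside the cell. Every probe set whose gene symbol in the authors' deposited tables is one of the 41 was taken, which gave 86 of the 54675 probe sets on the array and at least 1 for each of the 41 genes, of 20067 gene symbols in all. Of these genes, 12 had 1 probe set and 29 had several, up to 4.

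The study followed HEK293T cells, a human embryonic kidney line, after delivery of pEGFP-LUC, a reporter plasmid for green fluorescent protein (GFP) and luciferase, in polyplexes with polyethylenimine, a cationic polymer. Treated cells (3 arrays) had received polyplexes of 25 kDa branched polyethylenimine 2 h earlier and were not sorted, and untreated cells of that time (2 arrays) had received none. Flow sorting gave GFP-positive and GFP-negative cells, 3 arrays each, after 8, 16 and 24 h, and cells of both kinds had been given polyplexes. No untreated cells were measured at the sorted times, polyplexes were added 18 h after seeding, and for the 24 h cells the labels do not give the polymer's size.

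Heparan sulfate is a long, negatively charged sugar chain. It is started on a serine of a core protein by a short linker, extended by the exostosins, and then modified by N-deacetylation and N-sulfation, by epimerization of glucuronic to iduronic acid, and by sulfation at the 2-O, 6-O and 3-O positions. On the cell surface the chains bind growth factors, viruses and positively charged particles, and cell-surface heparan sulfate has long been studied as a binding site for cationic gene delivery complexes.

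Values are log2 expression made by RMA, which corrects background, normalizes and summarizes the probes of a set. The median over all probe sets of an array lay between 4.85 and 4.89 for 2 h, 4.66 and 4.71 for 8 h, 4.96 and 5.10 for 16 h, and 4.93 and 4.97 for 24 h. Levels were therefore compared within a time and never across times, and no level is compared between genes. Of the 86 probe sets, 15 lay in the lower 40% of all probe sets by mean, among them all probe sets of GPC5, HS3ST4, HS3ST5, NDST3, NDST4 and XYLT1. Mean log2 expression over 8 HEK293 marker genes was 9.15 to 9.30 in treated and 9.33 to 9.35 in untreated cells at 2 h, 8.59 to 8.66 in GFP-positive and 8.73 to 8.81 in GFP-negative cells at 8 h, and 9.20 to 9.28 in GFP-positive and 9.25 to 9.36 in GFP-negative cells at 16 h. Over 8 markers of blood, connective tissue, endothelial and liver cells the ranges were 4.28 to 4.36 in treated and 4.24 to 4.30 in untreated cells at 2 h, 4.36 to 4.38 in GFP-positive and 4.29 to 4.34 in GFP-negative cells at 8 h, and 4.58 to 4.79 in GFP-positive and 4.57 to 4.62 in GFP-negative cells at 16 h. Of these, PTPRC and LYZ, which define blood cells, were at no more than 3.56 and 3.67 on any array. The part of either marker list in the results was not tested. The arrays hold RNA of many cells, so fewer cells with a transcript and less of it per cell cannot be told apart. The labels call the arrays biological replicates and tie none to a culture or day, so a p-value here reflects only how these arrays vary, which may be technical.

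A probe set was called when its Benjamini-Hochberg adjusted p from limma was under 0.05 over all 54613 probe sets that are not array controls, with the 17 arrays of 2, 8 and 16 h in 1 fit and the 6 arrays of 24 h in a fit of their own. Differences are log2 fold changes, treated minus untreated or GFP-positive minus GFP-negative, with the standard error (SE) of that fit. A probe set that fell or rose was lower or higher in the first group of its comparison than in the second. At the sorted times, without untreated cells, which of the groups changed cannot be told.

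The 2 h comparison asks how cells differed shortly after the particles had been added. HPSE, which encodes heparanase, the enzyme that cuts heparan sulfate chains, was lower in treated than in untreated cells by 1 of its 2 probe sets, and it was the only called one of the 86. Over all probe sets 0.335% were called lower and 0.214% higher. The members had a median log2 fold change of -0.05, against 0.01 over all probe sets, and 57 of 86 lay below 0, against 47.3% of all. The values of 20 member probe sets lay below those of untreated cells on every treated array and those of 4 lay above, 23.3% and 4.65% of the 86, against 10.3% and 9.57% of all probe sets.

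At 8 h, the first time with sorted cells, the question was how cells sorted as GFP-positive differed from cells given polyplexes and sorted as GFP-negative. Of the members, 8 probe sets of 8 genes were called lower in GFP-positive than in GFP-negative cells and 0 higher: GLCE, NDST1, NDST2, B4GALT7, B3GALT6, EXT2, HS6ST3 and HPSE. That is 9.3% of the 86, against 4.15% of all probe sets called lower and 2.75% called higher. Among probe sets in the upper 60% by mean it was 8 of 71 members, 11.3%, against 6.58% of all. The members' median log2 fold change was -0.16, against 0.00 over all probe sets, and 68 of 86 lay below 0, against 49.1% of all. On every array the GFP-positive values of 28 member probe sets lay below and those of 4 above the GFP-negative values, 32.6% and 4.65%, against 12.7% and 10.8% of all.

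Limits to the 8 h count came from the fit and the scaling. It was 4 with all 23 arrays in 1 fit and 4 with the 8 h arrays fitted alone, in both cases GLCE, NDST1, B4GALT7 and HS6ST3, 12 when blocked by replicate number, and 6 without GFP-positive replicate 3, whose source name states 16 h while its title and description state 8 h. Of all calls at 8 h 60.1% were lower, against 49.5% after quantile normalization and 67.6% after median centring, under which 7 and 11 member probe sets were called lower and 0 higher. After quantile normalization the named probe sets of EXT2 (limma adjusted p = 0.0885) and B3GALT6 (0.0840) were no longer called.

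At 16 h the same question was asked of cells sorted later. B4GALT7, NDST1, NDST2 and SULF1 were called lower in GFP-positive than in GFP-negative cells, each by 1 probe set, and 0 of the 86 higher. The 4 calls are 4.65% of the 86, against 1.96% of all probe sets called lower and 2.47% called higher. Of the 86, 61 lay below 0, which is 70.9% against 61.2% of all, with a median of -0.09 against -0.04. Values below all GFP-negative arrays were found for 10 member probe sets, 11.6% against 13.1% of all, and values above them for 3, or 3.49% against 8.07%.

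None of the 4 calls at 16 h remained with all 23 arrays in 1 fit (adjusted p 0.146 to 0.196) or with the 16 h arrays fitted alone (0.0530 to 0.109). Of all calls at 16 h 44.3% were lower, against 32.4% after quantile normalization and 25.3% after median centring, under which 4 and 3 member probe sets were called lower and 1, of B3GALT6, higher.

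**Figure D1:**
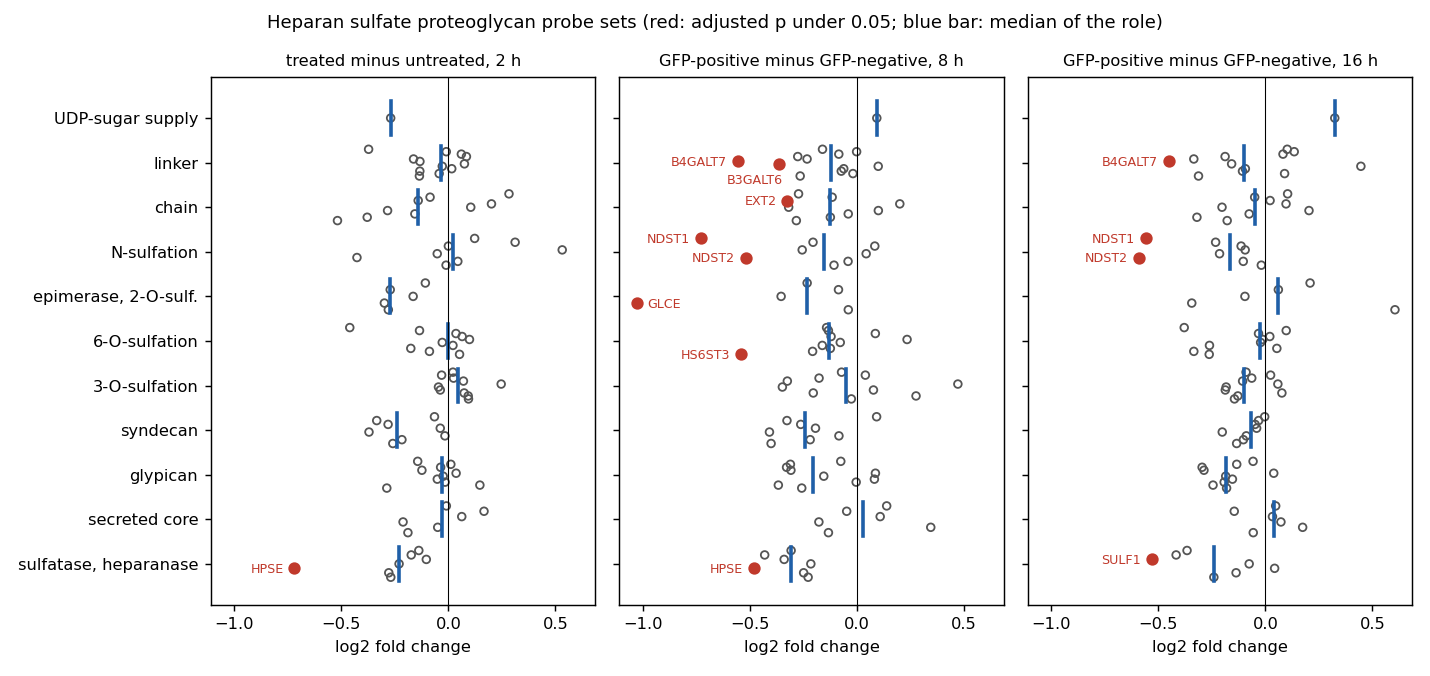
Log2 fold change of each of the 86 member probe sets (x axis) by role (y axis) at 2, 8 and 16 h. Each open circle is a probe set, red points are those called at an adjusted p under 0.05, and blue bars are role medians; all called points, 1 at 2 h, 8 at 8 h and 4 at 16 h, lie left of 0.

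Before the chain is begun, UGDH makes UDP-glucuronic acid, the sugar donor that linker and chain both use. Its log2 values at 16 h were 9.01, 8.73 and 8.83 in GFP-positive and 8.63, 8.44 and 8.52 in GFP-negative cells. The groups did not overlap, but the difference of 0.32 ± 0.10 (SE) missed the threshold in limma (adjusted p = 0.0928). At 2 h UGDH stood the other way, lower on every treated array than on the untreated ones (-0.27, limma adjusted p = 0.435). At 8 h the groups overlapped (0.09).

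The linker is made by the xylosyltransferases XYLT1 and XYLT2, the galactosyltransferases B4GALT7 and B3GALT6, and the glucuronosyltransferase B3GAT3. For 222191_s_at of B4GALT7, which adds the first galactose, the log2 values at 8 h were 6.10, 5.85 and 6.18 in GFP-positive and 6.58, 6.77 and 6.45 in GFP-negative cells. The highest GFP-positive array lay under the lowest GFP-negative one, and the log2 fold change was -0.56 ± 0.11 (SE), a 1.47-fold fall (limma adjusted p = 0.00669, and 0.0313 with all 23 arrays). At 16 h the same probe set read 6.97, 6.66 and 6.94 in GFP-positive and 7.29, 7.18 and 7.45 in GFP-negative cells, again without overlap. It fell there by 0.45 ± 0.11 (SE) on the log2 scale (limma adjusted p = 0.0284). That call was lost without GFP-negative replicate 1 (0.0580) or 3 (0.120) or GFP-positive replicate 2 (0.134) or 3 (0.0512). The gene's other probe set, 53076_at, had log2 fold changes of -0.26 at 8 h (limma adjusted p = 0.119) and -0.31 at 16 h (0.0854).

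The 3 probe sets of B3GALT6, which adds the second galactose, had log2 fold changes of different signs. At 8 h 225733_at read 7.63, 7.47 and 7.77 in GFP-positive and 7.93, 8.07 and 7.96 in GFP-negative cells, a fall of 0.36 ± 0.10 (SE) on the log2 scale (limma adjusted p = 0.0368, 0.0686 with all 23 arrays and 0.0840 after quantile normalization). Among the fits that left out 1 array of 8 h, it passed in the one without GFP-positive replicate 3 (0.0282) and in no other (0.0555 to 0.161). The other probe sets, 1553959_a_at and 226427_s_at, had log2 fold changes of -0.16 and 0.10 at 8 h. At 16 h 226427_s_at read 4.19, 4.49 and 4.23 in GFP-positive and 3.91, 3.78 and 3.88 in GFP-negative cells, higher on every array. Its difference of 0.45 ± 0.13 (SE) was not called (limma adjusted p = 0.0530, and 0.0235 after quantile normalization), while 225733_at stood at -0.16 there. At 2 h 1553959_a_at read 9.55, 9.82 and 9.68 in treated and 9.97 and 10.14 in untreated cells (-0.37, limma adjusted p = 0.207). None of the 7 probe sets of XYLT1, XYLT2 and B3GAT3 was called at any time. The lowest of their log2 fold changes was -0.33, at 16 h, for 219401_at of XYLT2 (limma adjusted p = 0.101).

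Chains are extended by EXT1 and EXT2, which act as one complex, and EXTL3 adds the first residue that commits the linker to heparan sulfate. The 8 h values of 202013_s_at of EXT2 were 6.98, 6.87 and 6.98 in GFP-positive and 7.28, 7.33 and 7.19 in GFP-negative cells. All GFP-positive arrays lay lower, and the probe set fell by 0.32 ± 0.086 (SE) on the log2 scale, 1.25-fold (limma adjusted p = 0.0305, 0.101 with all 23 arrays and 0.0885 after quantile normalization). It passed without GFP-negative replicate 3 (0.0437) and missed the threshold without any other single array of 8 h (0.0536 to 0.116). At 16 h it read 8.23, 8.13 and 8.23 in GFP-positive and 8.21, 8.11 and 8.20 in GFP-negative cells, a difference of 0.02. The second EXT2 probe set, 202012_s_at, was at -0.12 at 8 h. Of the other 7 probe sets of the chain enzymes none was called at 2, 8 or 16 h. EXT1 and EXTL3 came nearest at 8 h, with 201995_at at -0.27 (limma adjusted p = 0.115) and 209202_s_at at -0.32 (0.0869), both without overlap of the groups.

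N-sulfation is the first modification of the growing chain and is carried out by the 4 bifunctional NDST enzymes. The 8 h log2 values of 1554010_at of NDST1 were 6.09, 5.64 and 5.94 in GFP-positive and 6.73, 6.34 and 6.79 in GFP-negative cells. The groups did not overlap, and the fall was 0.73 ± 0.14 (SE) on the log2 scale, 1.66-fold (limma adjusted p = 0.00511, and 0.0359 with all 23 arrays). At 16 h this probe set read 6.32, 6.27 and 6.40 in GFP-positive and 6.78, 6.73 and 7.15 in GFP-negative cells. It fell by 0.56 ± 0.14 (SE) on the log2 scale (limma adjusted p = 0.0315), a call lost without GFP-negative replicate 3 (0.140), without GFP-positive replicate 1 (0.0658), 2 (0.106) or 3 (0.0638) and after median centring (0.0517). The other probe sets of NDST1 read differently: 202607_at was at -0.26 and 202608_s_at at 0.04 at 8 h, and at -0.09 and -0.21 at 16 h. At 2 h 202607_at read 7.52, 7.71 and 7.44 in treated and 7.07 and 6.99 in untreated cells. It was higher on every treated array, by 0.53 ± 0.14 (SE), and was not called (limma adjusted p = 0.113), while 1554010_at was at 0.12 and 202608_s_at at -0.05.

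For NDST2, 203916_at at 8 h read 6.26, 5.73 and 6.21 in GFP-positive and 6.61, 6.54 and 6.60 in GFP-negative cells. The groups did not overlap and the GFP-positive arrays were the more spread, with replicate 2 lowest. The log2 fold change was -0.52 ± 0.14 (SE; limma adjusted p = 0.0392, and 0.156 with all 23 arrays). It passed without GFP-positive replicate 1 (0.0324) or 3 (0.0479) and not without any other array of 8 h (0.0801 to 0.186). At 16 h it read 6.66, 6.34 and 6.68 in GFP-positive and 6.98, 7.06 and 7.40 in GFP-negative cells, a fall of 0.59 ± 0.14 (SE) on the log2 scale, 1.51-fold (limma adjusted p = 0.0267). Without GFP-negative replicate 2 (0.0605) or 3 (0.122) or GFP-positive replicate 2 (0.126) that call was lost. The second probe set, 1559701_s_at, was not called, at -0.20 at 8 h and -0.23 at 16 h. The 3 probe sets of NDST3 and NDST4, all among the low values, lay between -0.11 and 0.08 at 8 h and between -0.11 and -0.02 at 16 h.

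GLCE, the epimerase that turns glucuronic into iduronic acid, had the lowest log2 fold change of the 86 at 8 h. Its only probe set, 213552_at, read 5.75, 5.65 and 5.63 in GFP-positive and 6.67, 6.42 and 7.03 in GFP-negative cells. The GFP-positive arrays lay close together (SD 0.061, n = 3) and under all GFP-negative ones, which were more spread (SD 0.31, n = 3). The fall was 1.03 ± 0.16 (SE) on the log2 scale, 2.04-fold (limma adjusted p = 0.00134, and 0.0170 with all 23 arrays). It was called in each of the 6 fits that left out 1 array of 8 h (0.00187 to 0.00783). At 16 h the values were 7.0, 6.59 and 6.89 in GFP-positive and 7.42, 6.98 and 7.12 in GFP-negative cells, which overlapped, at -0.34 ± 0.16 (SE; limma adjusted p = 0.280). At 2 h they were 7.21, 6.73 and 7.01 in treated and 7.11 and 7.46 in untreated cells (-0.30).

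HS2ST1, which sulfates the iduronic acid that GLCE makes, had 4 probe sets and none was called at 2, 8 or 16 h. At 8 h all 4 were below 0, between -0.35 and -0.04. At 16 h 230465_at read 5.71, 5.27 and 5.95 in GFP-positive and 5.34, 4.82 and 4.95 in GFP-negative cells. That was the highest log2 fold change of the 86 at 16 h, 0.61 ± 0.20 (SE), but the groups overlapped and it was not called (limma adjusted p = 0.109). Its other probe sets were at 0.21, 0.06 and -0.10.

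Sulfate at the 6-O position is added by HS6ST1, HS6ST2 and HS6ST3. At 8 h 232276_at of HS6ST3 read 5.0, 5.38 and 5.17 in GFP-positive and 5.59, 5.78 and 5.82 in GFP-negative cells. No GFP-positive array reached the lowest GFP-negative one, and the fall was 0.54 ± 0.11 (SE) on the log2 scale, 1.46-fold (limma adjusted p = 0.00766, and 0.0270 with all 23 arrays). At 16 h it read 5.83, 5.44 and 5.70 in GFP-positive and 6.0, 5.94 and 5.82 in GFP-negative cells, with overlap, at -0.26. The other 3 probe sets of HS6ST3 lay at -0.21, -0.16 and 0.09 at 8 h and were not called. None of the 6 probe sets of HS6ST1 and HS6ST2 was called, with log2 fold changes between -0.14 and 0.23 at 8 h.

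The 3-O-sulfotransferases, which add the rarest sulfate and so complete binding sites for particular proteins, gave 10 probe sets of 6 genes and 0 calls. HS3ST2 was the highest of the 86 at 8 h: 219697_at read 4.43, 4.24 and 4.75 in GFP-positive and 4.12, 4.09 and 3.81 in GFP-negative cells. The groups did not overlap, and its log2 fold change of 0.47 ± 0.14 (SE) just missed the threshold (limma adjusted p = 0.0535). It passed where the lower 40% of probe sets were left out (0.0433). HS3ST3A1 stood the other way, with 219985_at at 8.64, 8.35 and 8.47 in GFP-positive and 8.93, 8.75 and 8.82 in GFP-negative cells at 8 h. Its difference of -0.35 ± 0.11 (SE) had a limma adjusted p of 0.0589, and 0.0382 when blocked by replicate number. The other 8 probe sets of these enzymes lay between -0.32 and 0.28 at 8 h.

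Of the core proteins, the syndecans SDC1 to SDC4 span the membrane, the glypicans GPC1 to GPC6 are held by a lipid anchor, and HSPG2 (perlecan) and AGRN (agrin) are secreted. None of their 24 probe sets was called at 2, 8 or 16 h. Of the 42 probe sets of the enzymes from N-sulfation on and of chain extension, 5 were called lower at 8 h and 2 at 16 h. Over all probe sets 4.15% were called lower at 8 h and 1.96% at 16 h, and the difference between the groups of genes was not tested. At 8 h the values of 10 of the 24 lay below all GFP-negative arrays, 5 of the 8 of the syndecans and 5 of the 10 of the glypicans, against the 12.7% of all probe sets, and that of 1, of HSPG2, lay above. At 2 h all 8 syndecan probe sets were below 0, with a median of -0.24, and 4 of them lay under both untreated arrays, against 47.3% of all probe sets below 0 and 10.3% under both.

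Probe sets of SDC3 and SDC2 had the lowest core protein log2 fold changes at 8 h. For 202898_at of SDC3 the log2 values were 5.86, 5.90 and 5.93 in GFP-positive and 6.01, 6.34 and 6.57 in GFP-negative cells. The difference was -0.41 ± 0.13 (SE; limma adjusted p = 0.0664). For 212158_at of SDC2 the log2 values were 7.96, 8.17 and 8.11 in GFP-positive and 8.31, 8.42 and 8.71 in GFP-negative cells. The difference was -0.40 ± 0.13 (SE; limma adjusted p = 0.0800, and 0.0193 with the replicate block). Both probe sets separated the groups without passing. The other SDC3 probe set, 1554864_a_at, was at 0.09, and those of SDC2 were at -0.08 (212154_at) and -0.22 (212157_at). Among the glypicans 204983_s_at of GPC4 read 5.73, 6.10 and 6.10 in GFP-positive and 6.23, 6.36 and 6.32 in GFP-negative cells, at -0.33 ± 0.11 (SE; limma adjusted p = 0.0760, and 0.0407 with the replicate block). GPC2 stood at -0.37 (limma adjusted p = 0.0722), and the 2 probe sets of GPC6 and that of GPC5 lay within 0.09 of 0. The 4 probe sets of AGRN were split, at 0.35, 0.11, -0.13 and -0.18, and the 2 of HSPG2 stood at 0.14 and -0.05. At 16 h 9 of the 10 glypican probe sets were below 0, with a median of -0.18, and the syndecans had a median of -0.07.

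SULF1 and SULF2 remove 6-O-sulfate from finished chains outside the cell, and heparanase cuts the chains. All 7 probe sets of these 3 genes were below 0 at 2 h and at 8 h, with medians of -0.23 and -0.31, against 47.3% and 49.1% of all probe sets below 0. At 16 h 212354_at of SULF1 read 6.72, 6.76 and 6.62 in GFP-positive and 7.05, 7.34 and 7.30 in GFP-negative cells. The groups did not overlap, and the probe set fell by 0.53 ± 0.11 (SE) on the log2 scale, 1.44-fold (limma adjusted p = 0.00862). It was the one call of 16 h that remained in each of the 6 fits without 1 array of that time (0.00624 to 0.0486). The other 2 SULF1 probe sets were at -0.37 (212344_at, limma adjusted p = 0.0515) and -0.42 (212353_at). At 8 h the 3 stood at -0.34, -0.31 and -0.43 in the same order and none was called (limma adjusted p = 0.0641, 0.0826 and 0.176), although 212353_at passed with the replicate block (0.0403). SULF2 had 2 probe sets, at -0.25 and -0.23 at 8 h and at -0.14 and -0.24 at 16 h.

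HPSE was called at 2 h and at 8 h by 222881_at. Its log2 values at 2 h were 4.41, 4.40 and 4.12 in treated and 4.95 and 5.10 in untreated cells. Both untreated arrays lay above all treated ones, and the fall was 0.72 ± 0.15 (SE) on the log2 scale, 1.65-fold (limma adjusted p = 0.0463, and 0.113 with all 23 arrays). The call was lost without any 1 of the 5 arrays of 2 h: without treated replicate 1 (0.0586), 2 (0.0844) or 3 (0.194), or untreated replicate 1 (0.0953) or 2 (0.426). At 8 h the values were 4.28, 4.11 and 4.34 in GFP-positive and 4.61, 4.46 and 5.10 in GFP-negative cells, a fall of 0.48 ± 0.14 (SE) on the log2 scale (limma adjusted p = 0.0458, and 0.113 with all 23 arrays). Of the 6 fits without 1 array of 8 h it passed in the one without GFP-negative replicate 2 (0.0237) and in no other (0.0546 to 0.199). At 16 h they were 5.14, 4.90 and 5.05 in GFP-positive and 5.07, 5.04 and 4.86 in GFP-negative cells, which overlapped (0.04). The second HPSE probe set, 219403_s_at, was not called, with log2 fold changes of -0.23, -0.21 and -0.08 for 2, 8 and 16 h.

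**Figure D2:**
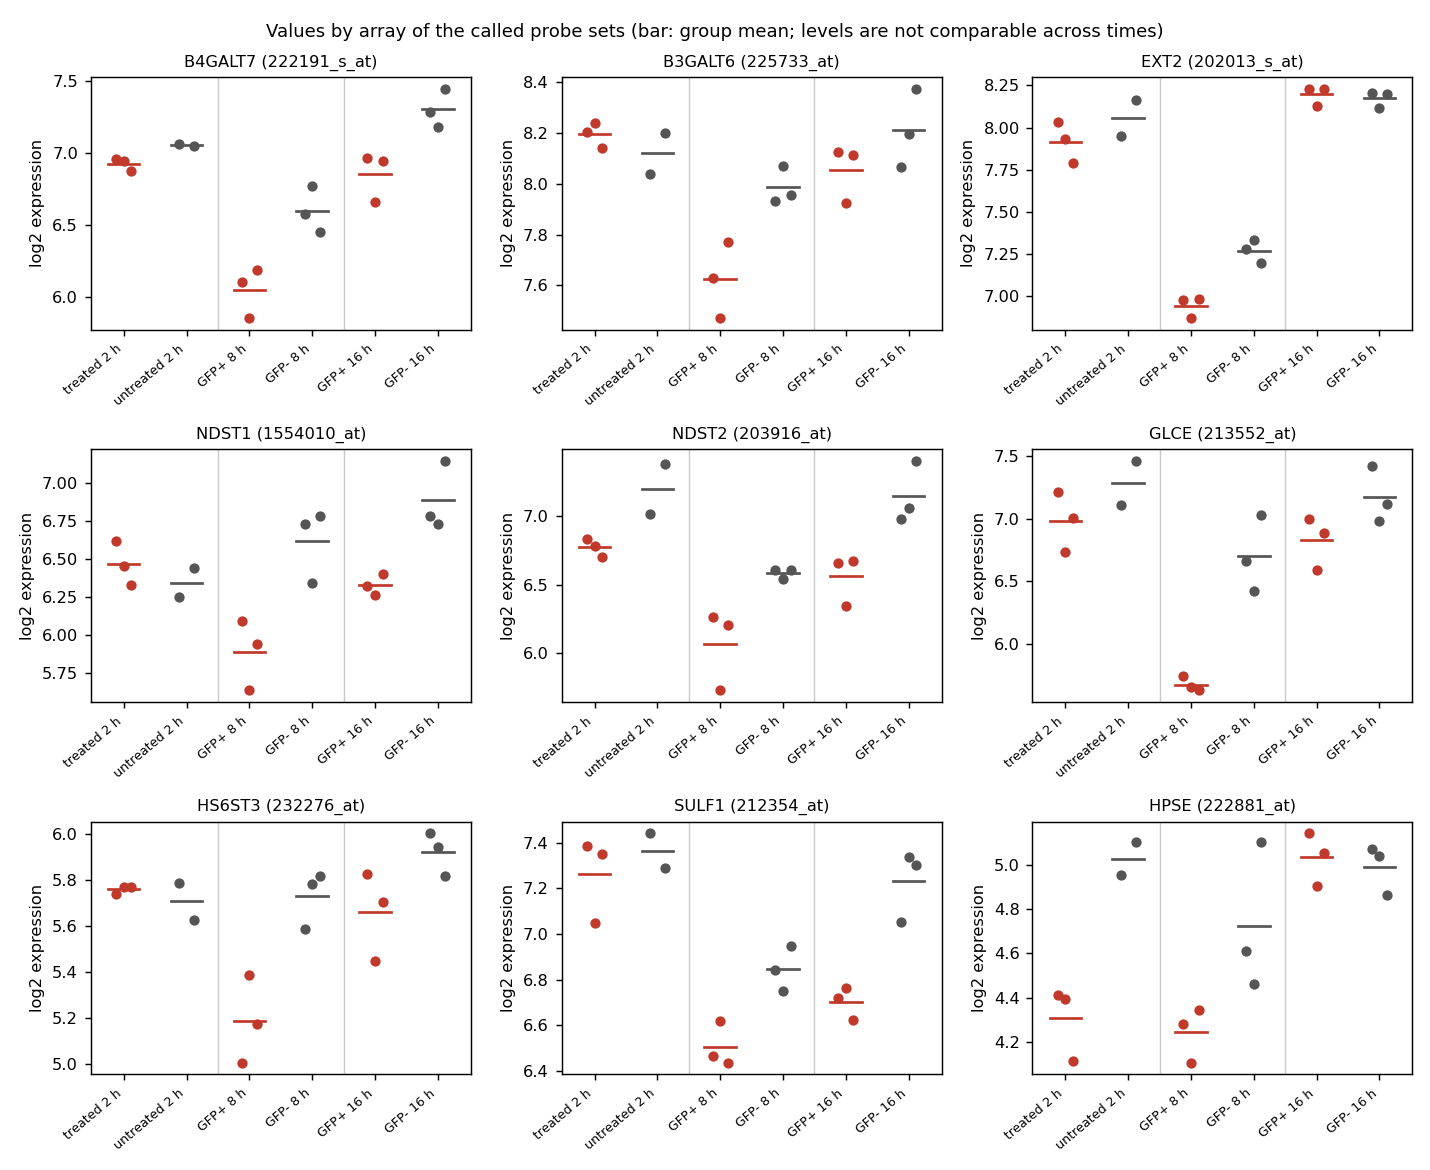
Log2 expression (y axis) on every array of the 2, 8 and 16 h groups (x axis) for the 9 genes with a called probe set. Points are arrays, red for treated or GFP-positive (GFP+) and grey for untreated or GFP-negative (GFP-) cells, and bars are group means; the 8 h GFP-positive points of all 9 genes lie below the GFP-negative ones, and do not overlap them.

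Of the 29 genes with several probe sets, 18 had all of them below 0 at 8 h and 0 had all above. At 16 h it was 16 below and 1 above, and at 2 h 13 below and 0 above. For the called genes with several probe sets at 8 h, NDST2, B4GALT7, EXT2 and HPSE had all below 0, and NDST1, B3GALT6 and HS6ST3 had at least 1 above. Which transcripts of a gene each probe set reads was not analysed here.

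Between 8 and 16 h, which share no arrays, 53 of the 86 probe sets were below 0 at both times, 61.6% against 35.5% of all probe sets. Pearson's r between the log2 fold changes of the 2 times was 0.55 across the 86 probe sets and 0.58 across all, which are not independent points. Probe sets of NDST1, NDST2 and B4GALT7 were called at both times. The test of the change itself, the 16 h minus the 8 h difference, called 0 of the 86 and 1 of all probe sets (0.00183%), and 7 members had an unadjusted p under 0.05. The smallest p were those of GLCE, with a change of 0.68 ± 0.23 (SE; limma adjusted p = 0.467), EXT2, with 0.35 ± 0.12 (SE; 0.469), and HPSE, with 0.52 ± 0.20 (SE; 0.488). The calls of GLCE, EXT2 and HPSE at 8 h and not at 16 h, and that of SULF1 at 16 h and not at 8 h, are thus not shown to differ between the times.

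**Figure D3:**
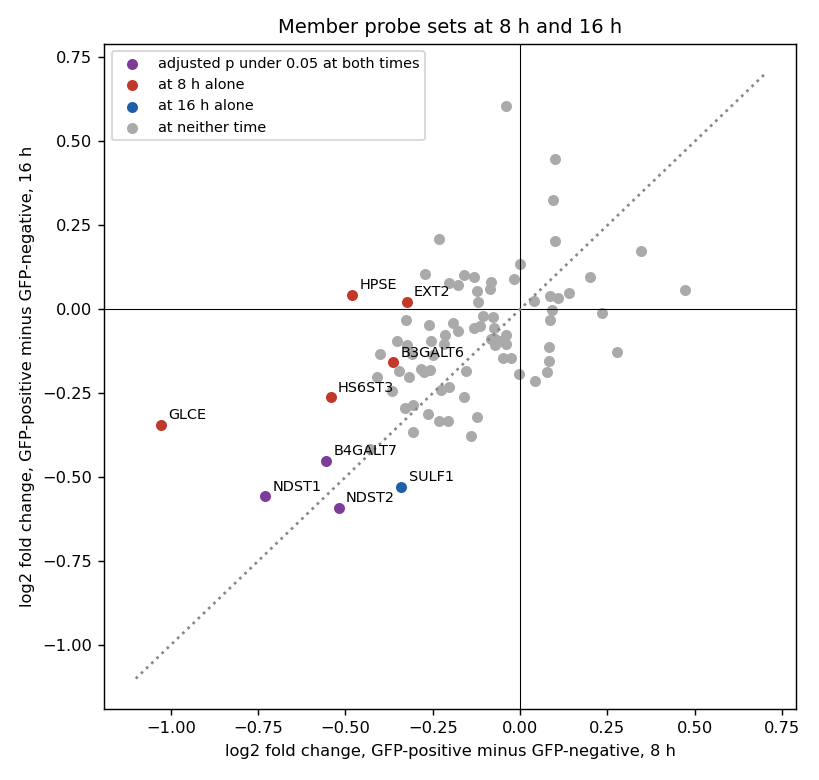
Log2 fold change, GFP-positive minus GFP-negative, at 16 h (y axis) against 8 h (x axis) for the 86 member probe sets, 1 point each, coloured by the time at which it was called; the dotted line marks equal values. NDST1, NDST2 and B4GALT7 lie low at both times, GLCE lies at -1.03 at 8 h and -0.34 at 16 h, and 53 points lie below 0 on both axes.

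Promoter sequences are shown for 5 of the called genes: B4GALT7, NDST1 and NDST2, which were called at both sorted times, GLCE, the lowest at 8 h, and HS6ST3, which with GLCE, NDST1 and B4GALT7 was called in all fits without 1 array of 8 h. They come from RefSeq on GRCh38.p14, run 5′ to 3′ on the gene's strand and hold 250 bases before and 50 after the annotated start. The regions are chr5:177599882-177600181 on the plus strand for B4GALT7, chr5:150497529-150497828 on the plus strand for NDST1, chr10:73811771-73812070 on the minus strand for NDST2, chr15:69160385-69160684 on the plus strand for GLCE and chr13:96089857-96090156 on the plus strand for HS6ST3. For NDST2 the first of the 2 starts that RefSeq's table holds is shown. Capitals mark matches, on either strand, to 6 motifs. The GC box was searched as GGGCGG and the CCAAT box by the letters of its name. The TATA box was searched as TATAAA and the E-box as CACGTG. The cyclic AMP response element was searched as TGACGTCA, and the composite site of ATF4 and CHOP was searched as TGATGCAA.
B4GALT7: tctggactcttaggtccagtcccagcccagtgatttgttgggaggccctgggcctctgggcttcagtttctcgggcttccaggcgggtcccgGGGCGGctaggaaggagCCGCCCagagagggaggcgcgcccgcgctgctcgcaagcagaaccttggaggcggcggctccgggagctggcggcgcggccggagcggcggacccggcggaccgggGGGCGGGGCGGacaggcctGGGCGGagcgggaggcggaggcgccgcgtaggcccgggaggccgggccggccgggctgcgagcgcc
NDST1: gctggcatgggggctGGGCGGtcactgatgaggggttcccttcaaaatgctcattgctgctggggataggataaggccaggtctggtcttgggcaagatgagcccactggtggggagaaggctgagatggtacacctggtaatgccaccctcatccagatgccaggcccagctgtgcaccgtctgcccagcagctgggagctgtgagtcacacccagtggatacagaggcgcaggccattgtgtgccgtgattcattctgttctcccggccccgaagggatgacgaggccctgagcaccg
NDST2: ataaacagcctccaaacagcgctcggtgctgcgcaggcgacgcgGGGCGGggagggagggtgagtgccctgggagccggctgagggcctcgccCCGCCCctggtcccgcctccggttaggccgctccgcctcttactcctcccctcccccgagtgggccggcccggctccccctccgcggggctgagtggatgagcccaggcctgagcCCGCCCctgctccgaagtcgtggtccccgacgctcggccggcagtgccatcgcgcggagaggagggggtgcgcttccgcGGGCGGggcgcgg
GLCE: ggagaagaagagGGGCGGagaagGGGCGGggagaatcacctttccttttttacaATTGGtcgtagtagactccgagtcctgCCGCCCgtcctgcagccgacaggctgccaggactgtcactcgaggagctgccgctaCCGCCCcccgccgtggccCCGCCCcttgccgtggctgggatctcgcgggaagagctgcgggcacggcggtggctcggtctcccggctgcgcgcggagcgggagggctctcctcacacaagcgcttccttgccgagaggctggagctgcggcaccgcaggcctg
HS6ST3: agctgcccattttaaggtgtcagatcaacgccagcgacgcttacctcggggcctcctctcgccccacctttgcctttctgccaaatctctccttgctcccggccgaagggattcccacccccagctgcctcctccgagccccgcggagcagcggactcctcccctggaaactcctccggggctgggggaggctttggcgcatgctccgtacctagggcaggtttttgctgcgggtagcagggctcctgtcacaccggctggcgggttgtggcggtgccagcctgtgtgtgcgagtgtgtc

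The GC box was found 5 times in B4GALT7, where 2 of the matches overlap by 1 base, 5 times in GLCE, 4 times in NDST2, 1 time in NDST1 and 0 times in HS6ST3, and GLCE had a single CCAAT. CG dinucleotides numbered 36 in B4GALT7, 35 in NDST2, 29 in GLCE, 19 in HS6ST3 and 8 in NDST1, which thus had the fewest of the 5. Promoters of 35 of the 41 members were found, with a median of 29 CG dinucleotides, against 14 over all 35116 promoters of the table and 22 over the 15842 protein-coding genes with a promoter there. The GC box was present in 27 of the 35, or 77.1%, against 45.0% of all and 58.5% of the protein-coding. The CCAAT box was found in 28.6% of the 35, against 34.6% of all promoters and 36.4% of the protein-coding. In the same order the shares were 14.3%, 11.5% and 9.63% for the TATA box and 11.4%, 7.26% and 8.88% for the E-box. For the cyclic AMP response element they were 8.57% (3 promoters), 1.85% and 2.59%, and for the ATF4 and CHOP site 0.0%, 0.866% and 0.669%. A match describes the letters of the window and nothing more.

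Genes next to the pathway were read from lists of their own. Of 33 probe sets of 13 genes for precursor supply and for the phosphate switch on the linker xylose, 3 fell and 2 rose at 8 h. These were 1 probe set each of 5 genes, and all of these genes but SLC35B2 had others, which were not called at 8 h. For this list and the next ones the 8 h shares of all probe sets are the 4.15% called lower and 2.75% called higher given above. PXYLP1, the phosphatase of that switch, averaged 7.66 in GFP-positive and 8.19 in GFP-negative cells at 8 h (-0.53 ± 0.081, SE; limma adjusted p = 0.00108, and 0.0147 with all 23 arrays). SLC35B2, which carries the sulfate donor PAPS into the Golgi, averaged 8.06 in GFP-positive and 8.55 in GFP-negative cells (-0.49 ± 0.099, SE; limma adjusted p = 0.00710, and 0.0420 with all 23 arrays). The second PAPS transporter, SLC35B3, went the other way, at 8.75 in GFP-positive and 8.34 in GFP-negative cells (0.42 ± 0.083, SE; limma adjusted p = 0.00659, and 0.0894 with all 23 arrays). At 16 h 1 of the SLC35B3 probe sets rose too, by 0.37 (limma adjusted p = 0.0170). Of the sugar nucleotide transporters SLC35D1 fell by 0.37 on the log2 scale at 8 h (limma adjusted p = 0.0189), and SLC35D2 rose by 0.69 there by 231437_at (0.00369) and by 0.95 at 16 h by 213083_at (0.00808). These calls of SLC35D1, SLC35D2 and SLC35B3 were not made with all 23 arrays in 1 fit (limma adjusted p = 0.0622 to 0.201).

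The chondroitin branch competes for the same linker. Of its 25 probe sets of 12 genes 5 fell at 8 h and 0 rose, with a median log2 fold change of -0.16. Each of the 5 was the only called probe set of its gene at 8 h, and each of these genes had at least 1 other. UST, which sulfates the uronic acid of chondroitin and dermatan sulfate, averaged 6.83 in GFP-positive and 7.48 in GFP-negative cells (-0.65 ± 0.094, SE; limma adjusted p = 0.000698, and 0.0448 with all 23 arrays). The chondroitin sulfotransferases CHST15 (-0.56), CHST11 (-0.51) and CHST12 (-0.36) and the polymerizing factor CHPF2 (-0.37) fell too (limma adjusted p = 0.00372 to 0.0475, and 0.0526 to 0.149 with all 23 arrays). At 16 h 1 probe set each of CHST15 and UST fell as well, by 0.48 and 0.45 (limma adjusted p = 0.0127 and 0.0112, and 0.162 and 0.230 with all 23 arrays). Of 28 probe sets of the 8 lysosomal genes of heparan sulfate breakdown, 3 fell and 1 rose at 8 h: both of SGSH, the sulfamidase (-0.52 and -0.46), 1 of NAGLU (-0.41) and 1 of IDS (0.30). These calls and the next were not made with all 23 arrays in 1 fit (limma adjusted p = 0.0514 to 0.254). At 16 h HGSNAT rose by 0.43 by 1 probe set (limma adjusted p = 0.0297). Of 27 probe sets of 8 part-time carriers and glypican-releasing enzymes, only 1, of TGFBR3, was called at 8 h (-0.40, limma adjusted p = 0.00977, and 0.0223 with all 23 arrays). The other probe set of TGFBR3 was not called. None of these lists had a call at 2 h by limma, with 7, 0, 2 and 2 probe sets at an unadjusted p under 0.05.

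At 24 h the labels went against 2 probe sets that tracked GFP at the other times. On 1555339_at, annotated as RAP1A, the log2 values were 12.53, 12.68 and 12.41 in GFP-positive and 7.72, 8.20 and 7.87 in GFP-negative cells at 8 h, and 12.98, 13.06 and 13.36 in GFP-positive and 9.55, 9.96 and 8.73 in GFP-negative cells at 16 h. On the arrays labelled GFP-positive at 24 h it read 3.68, 3.81 and 13.37, and on those labelled GFP-negative 13.61, 13.51 and 10.21. The probe set 1555340_x_at did likewise, whereas the other two of RAP1A lay between 10.52 and 10.82 (202362_at) and between 6.75 and 7.64 (228548_at) on the 6 arrays. In the authors' deposited 24 h table the GFP-positive mean of 1555339_at is 13.4 and the GFP-negative mean 9.62, and the group means of that table equal those of the arrays as labelled for 0 of 54675 probe sets (tolerance 1e-06), against all 54675 at 2, 8 and 16 h. The cause was not tested, the arrays keep their labels here, and no direction is drawn from the labels at 24 h.

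By the labels, 0 of the 86 member probe sets and 0.0% of all were called by limma at 24 h, with 1 member at an unadjusted p under 0.05. GLCE read 7.25, 6.93 and 6.20 on the arrays labelled GFP-positive and 6.68, 6.55 and 7.06 on those labelled GFP-negative. NDST2 (203916_at) read 7.54, 6.99 and 6.81 on the arrays labelled GFP-positive and 6.93, 6.84 and 7.54 on those labelled GFP-negative. SULF1 (212354_at) read 7.49, 7.21 and 6.50 on the arrays labelled GFP-positive and 6.77, 6.48 and 7.07 on those labelled GFP-negative. The groups as labelled overlapped widely for each of the 3. The third array labelled GFP-positive was the lowest of its group, and the third labelled GFP-negative was the highest of its own. On each of these probe sets the arrays where 1555339_at read 13.37, 13.61 and 13.51 lay below the other arrays of 24 h. The 3 were picked from the called probe sets, and this order was not tested. The smallest p were those of 208334_at of NDST4 (0.28), 202898_at of SDC3 (0.51) and 212283_at of AGRN (0.24), with a limma adjusted p of 0.978 each.

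**Figure D4:**
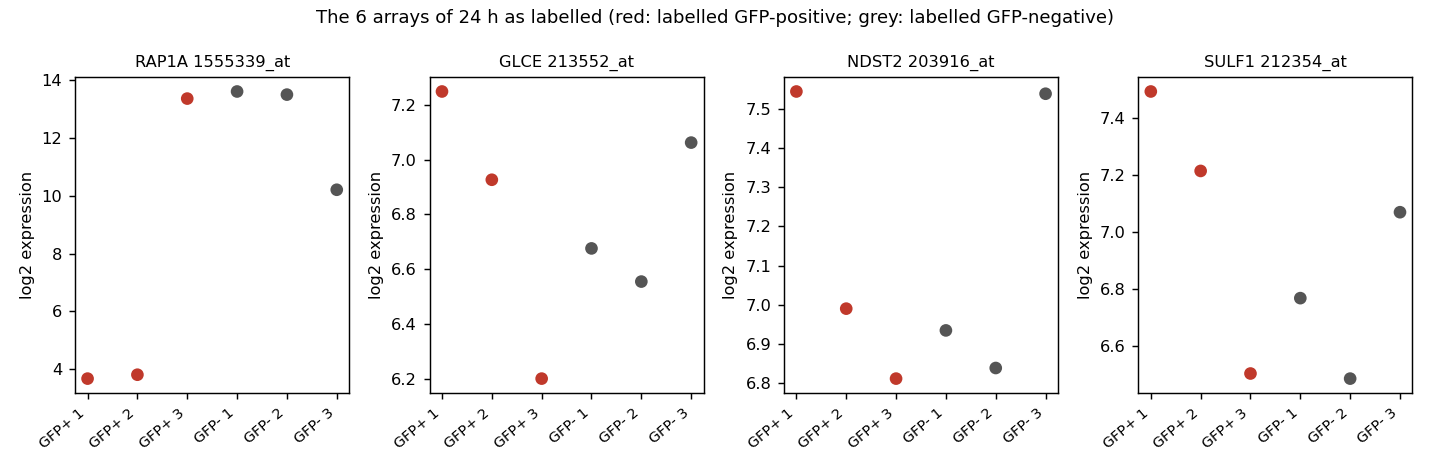
Log2 expression (y axis) on each of the 6 arrays of 24 h (x axis), red for those labelled GFP-positive and grey for those labelled GFP-negative, for a RAP1A probe set and for GLCE, NDST2 and SULF1. The RAP1A values of 3.68 and 3.81 belong to arrays labelled GFP-positive, and in the 3 member panels the labelled groups overlap.

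The authors' deposited tables give each probe set a posterior probability, from a model that they do not name. At a posterior over 0.95 their 24 h table holds 6 of the 86, all lower in GFP-positive cells, or 6.98% against 1.35% of all probe sets lower at that value. In the authors' deposited table these are GLCE (-0.69, posterior 0.958), NDST2 (-0.62, 0.992), SDC3 (-0.62, 0.971), SULF1 (-0.61, 0.969), AGRN (-0.58, 0.974) and NDST1 (-0.57, 0.951). By the labelled arrays 5 of these 6 probe sets had the other sign, GLCE at 0.03, NDST2 at 0.01, SDC3 at 0.51, SULF1 at 0.30 and AGRN (217419_x_at) at 0.29, and NDST1 stood at -0.03. At that posterior the authors' deposited 2, 8 and 16 h tables hold 0, 1 and 0 of the 86, the 1 being GLCE at 8 h (posterior 0.999). Over all probe sets 0.436%, 2.27% and 1.65% of the authors' deposited values pass it at those times, 1.0% at 8 h being lower.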

How the data were processed

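RNA of HEK293T cells was hybridized as biotin-labelled cRNA on 23 Affymetrix arrays. The deposited values are log2 expression per probe set, made by the authors with RMA in R 2.11.1 (2, 8 and 16 h) or R 2.9.0 (24 h), per the submitters' processing notes. Trizol was used for all RNA, and a column followed for all times but 24 h, per the labels' protocols. The authors' deposited tables also hold log2 group means and fold changes and a posterior probability (a score from 0 to 1 of a model they do not name). Their column headed as a fold, a ratio at 16 h and the square of the log2 fold change at the other times, was not used. The annotation and genome build behind the probe sets are not given in the sources used here.

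Symbols were those of the deposited tables, which name 41707 of 54675 probe sets and list PXYLP1 as ACPL2. After 62 control probe sets were left out, group means were fitted with limma 3.58.1 (lmFit and eBayes, two-sided) in R 4.3.3. The 17 arrays of 2, 8 and 16 h shared 1 fit, since the 24 h arrays differ in extraction and R version. A call is an adjusted p (Benjamini-Hochberg, 54613 probe sets) under 0.05. The procedure was tested on simulated data. No value is a read count, so the number of arrays limits the precision. No pair of arrays was equal in all values (0 pairs, correlations 0.972 to 0.997). Some single values were equal between arrays of 2 h. For NDST4, 1570222_at read 2.24271 on every array of 2 h. For HPSE, 219403_s_at read 5.88132 on treated replicates 1 and 2 and untreated replicate 1. Such values enter the spread that the 17 arrays share, and their part in the calls was not tested.

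Groups follow the labels. At 8 h the deviations of same-numbered arrays from their group means correlated at 0.26, 0.24 and 0.324. The labels do not state that the numbers are pairs, so the main fit took no pairing and the replicate block is an alternative. The alternatives were a replicate block, all 23 arrays in 1 fit, each time fitted alone, quantile normalization, median centring, an intensity trend, a filter of the lower 40% of probe sets, 1 probe set per gene, the authors' means and leaving out each array.

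All members are accounted for. Values per array and full statistics were set by rule for members with a called probe set in the 17-array fit and for the 3 smallest p of each comparison, with all probe sets of a gene where they differ, and other lists by their called genes. Other probe sets described singly were chosen after their values were seen. The members and lists were chosen with earlier results of these data known.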

Additional observations from a re-analysis of the deposited data

How the results depend on the processing

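Called probe sets over all 54613 numbered 300 at 2 h, 3772 at 8 h, 2420 at 16 h, 0 at 24 h and 1 for the change between 8 and 16 h. With 1 probe set per gene they were 147, 2468 and 1265 at 2, 8 and 16 h, fewer being tested. With all 23 arrays in 1 fit they were 107, 1170, 32 and, for the change, 0, and with each time fitted alone 0, 1843 and 675. The change also gave 0 with the 8 and 16 h arrays alone and with the replicate block. The block gave 339, 5131 and 3685 at 2, 8 and 16 h. Leaving out 1 array gave 27 to 284, 2027 to 3309, 1178 to 2401, 0 to 0 and 0 to 2 in the same order. Member calls, 1, 8 and 4, became 0 at 2 h under 1 probe set per gene, all 23 arrays and 2 h alone, 4 at 8 h under all 23 arrays and 8 h alone, and at 16 h 2, 0 and 0 under 1 probe set per gene, all 23 arrays and 16 h alone. At 8 h 1 probe set per gene gave 9, 8 lower and 1 higher. That fit did not hold the named probe sets of B4GALT7, B3GALT6, EXT2, NDST1 and HPSE. A member was also called higher at 8 h without GFP-negative replicate 1 and without GFP-positive replicate 2. Leaving out 1 array gave 0 to 0, 5 to 7 and 1 to 3 member calls at 2, 8 and 16 h, and 0 to 0 at 24 h and for the change. Where no construction is named, the cause was not tested.

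Same-numbered arrays correlated in their deviations at 0.317, 0.0909 and 0.443 at 16 h, -0.11 and -0.0467 at 2 h and -0.0584, -0.209 and -0.36 at 24 h. The main fits took the numbers as pairs at no time. With the block, 5 members were called at 16 h, HS2ST1 (230465_at, adjusted p = 0.0339) being added, and at 2 h NDST1 (202607_at, 0.0469) passed and HPSE (0.0615) did not, by limma. No member probe set called at 2, 8 or 16 h changed direction in its comparison under the alternatives run. Some values near 0 that were not called did: at 16 h 202013_s_at of EXT2 turned below 0 without GFP-negative replicate 2, and 222881_at of HPSE without GFP-positive replicate 1. At 24 h the signs by the labelled arrays and in the authors' deposited table differ for SDC3 (202898_at, -0.62 there) and AGRN (212283_at, -0.19 there), and for GLCE, NDST2 (203916_at), SULF1 (212354_at) and AGRN (217419_x_at). That table gives no count of calls to set beside 0.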

Other observations

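Among the marker genes 2 had a called probe set. NEFL, a neurofilament gene that HEK293 cells express, fell by 221805_at, which averaged 8.97 in treated and 9.56 in untreated cells at 2 h (log2 fold change -0.58, limma adjusted p = 0.0183), 8.97 in GFP-positive and 9.47 in GFP-negative cells at 8 h (-0.50, 0.00380) and 9.18 in GFP-positive and 9.55 in GFP-negative cells at 16 h (-0.37, 0.0298). With all 23 arrays in 1 fit its adjusted p was 0.185 to 0.439. ALB, a liver marker, rose at 16 h by 211298_s_at, which averaged 4.42 in GFP-positive and 3.05 in GFP-negative cells (1.37, limma adjusted p = 0.00570, and 0.127 with all 23 arrays). Other probe sets of NEFL and ALB were not called in these comparisons.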
